A study of Mus musculus with 4 samples.

Results

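The fatty acid synthesis genes are 8 genes taken by symbol from a list written for this study: Acly, Acaca, Fasn, Elovl6, Scd1, Me1, Thrsp and Srebf1. Of these 8, 7 were among the 19465 genes of the count matrices, and Elovl6 was not analysed here. The members were not chosen by a measured value. They were followed in spatial transcriptomes (Visium, an array of barcoded spots that each record transcripts of the tissue above) of 4 formalin-fixed, paraffin-embedded mouse liver sections, 1 per mouse. A PDGFRBcreERT2/Hk2fl/fl mouse gave the Hk2-deleted fibrotic section (n = 1), after carbon tetrachloride (CCl4), a hepatotoxin that injures the liver around the central veins. The 2 fibrotic sections came from HK2fl/fl mice given CCl4, and the healthy section (n = 1) from an HK2fl/fl mouse given olive oil. All 4 mice carried the floxed Hk2 allele, were labelled male and aged 5 months, and had received tamoxifen at 75 mg/kg for 5 days, with a wait of 2 weeks before the oil or CCl4. CCl4 was given at 1 µL/g, 2 times a week, for 6 weeks by the design text, while the sample protocol allows a shorter course. The Pdgfrb promoter drives the inducible Cre in stellate cells and other mural cells, not in hepatocytes, so the hepatocytes of the Hk2-deleted mouse were not the target of the deletion.

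The liver makes fatty acids from cytosolic citrate. ATP citrate lyase (Acly) releases acetyl-CoA, acetyl-CoA carboxylase (Acaca) turns it into malonyl-CoA, and fatty acid synthase (Fasn) builds palmitate from both, using NADPH that malic enzyme (Me1) helps to supply. Palmitate is then elongated by Elovl6 and desaturated by stearoyl-CoA desaturase (Scd1), whose products enter triglycerides and membranes. Srebf1 encodes the transcription factor SREBP1, whose liver form SREBP-1c is known to raise these genes after feeding and insulin, and Thrsp (Spot 14) is a small protein, raised by thyroid hormone and carbohydrate, that promotes lipogenesis in hepatocytes. None of these genes is confined to the liver, and adipose tissue is another main site of the pathway.

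The sections held 2577 to 4134 spots and 40585039 to 67479047 unique molecular identifiers (UMIs, counts of captured molecules), with a median of 13665 to 15588 UMIs per spot. The 12 hepatocyte markers, such as Alb and Ttr, were abundant in all 4 sections. Adipocyte markers were near absent: Adipoq, Plin1, Lep and Retn had between 0 and 3 UMIs in each section, and the sum over the 8 listed adipocyte markers came almost wholly from Pck1, which hepatocytes also express. Fibrotic replicate 1 went against its label. The Y-linked genes Eif2s3y and Ddx3y stood at 0.578 and 0.415 CPM there (UMIs of a gene scaled to a library total of 1000000), against 47.0 to 69.9 CPM in the other 3 sections. Many of the calls that rest on this section are therefore also given without it, where a test was left. Among those not given without it are Fasn and Acly within zones, the middle zone and the splits of collagen-high spots by zone. Hk2 was at 3.498 CPM in the Hk2-deleted fibrotic section. It was at 4.88 and 3.94 CPM in the fibrotic sections and at 1.85 CPM in the healthy one. The difference between the Hk2-deleted and the fibrotic sections was not called (log2 fold change -0.38 ± 0.33 SE, edgeR adjusted p = 0.9998), so the transcript did not show the deletion at the level of whole sections.

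Of the 7 genes measured, Acly, Fasn, Me1 and Thrsp were lower in fibrotic than in healthy sections, and the promoters of these 4 are shown because the genes moved together. RefSeq windows of 300 bases, from 250 before to 50 after an annotated start, were taken on build GRCm38.p6: chr11:100527951-100528250 for Acly, chr11:120824498-120824797 for Fasn, chr9:86695865-86696164 for the first Me1 start and chr7:97417501-97417800 for Thrsp, all on the minus strand and read 5′ to 3′ in the direction of transcription. The genes themselves span chr11:100476352-100528000 (Acly), chr11:120805958-120825166 (Fasn), chr9:86581363-86695914 (Me1) and chr7:97412933-97417550 (Thrsp). Capitals mark matches, on either strand, to the NF-Y box CCAAT and to the GC box GGGCGG.
Acly: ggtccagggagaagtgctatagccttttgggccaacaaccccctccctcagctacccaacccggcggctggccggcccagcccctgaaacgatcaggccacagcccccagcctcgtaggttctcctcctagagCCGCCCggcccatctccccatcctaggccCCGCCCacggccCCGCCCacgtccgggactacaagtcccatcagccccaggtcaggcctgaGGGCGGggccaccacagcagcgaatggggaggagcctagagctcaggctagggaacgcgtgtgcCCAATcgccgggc
Fasn: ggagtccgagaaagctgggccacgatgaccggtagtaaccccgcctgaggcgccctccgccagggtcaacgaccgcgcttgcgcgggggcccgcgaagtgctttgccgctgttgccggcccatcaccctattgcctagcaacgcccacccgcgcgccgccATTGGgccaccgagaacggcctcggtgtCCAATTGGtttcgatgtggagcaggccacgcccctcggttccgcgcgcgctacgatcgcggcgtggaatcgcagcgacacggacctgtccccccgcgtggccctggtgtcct
Me1: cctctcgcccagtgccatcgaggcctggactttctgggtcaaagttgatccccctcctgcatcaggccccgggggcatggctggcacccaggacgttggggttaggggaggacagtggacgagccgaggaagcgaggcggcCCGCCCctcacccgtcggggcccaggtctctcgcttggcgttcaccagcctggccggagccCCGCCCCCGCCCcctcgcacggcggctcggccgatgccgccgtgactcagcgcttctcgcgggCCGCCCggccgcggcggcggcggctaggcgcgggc
Thrsp: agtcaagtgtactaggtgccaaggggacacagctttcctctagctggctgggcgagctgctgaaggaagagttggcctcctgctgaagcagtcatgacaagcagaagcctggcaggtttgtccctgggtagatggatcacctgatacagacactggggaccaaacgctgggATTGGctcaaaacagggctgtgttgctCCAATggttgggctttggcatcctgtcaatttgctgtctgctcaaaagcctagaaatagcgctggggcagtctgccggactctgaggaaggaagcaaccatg
The CCAAT box was matched in 3 of these windows: in Fasn at 3 places, of which 2 overlap in a single run, in Thrsp at 2 and in Acly at 1, the last of them downstream of the start. The GC box was matched at 4 places each in Acly and Me1. Over 10 windows found for the members (3 for Srebf1, 2 for Me1, and 1 each for Acly, Acaca, Elovl6, Fasn and Thrsp; Scd1 is named only), 6 held CCAAT and 4 held GGGCGG, compared with 37.41% and 35.66% of all 32851 promoter windows of the same length. The E-box CACGTG and the sterol regulatory element TCACNCCAC, each searched on both strands, had 0 matches in the 10 windows, and were in 7.15% and 1.242% of all windows. A match, or the lack of one, describes the letters of these windows only.

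Whole sections were compared first, to ask how CCl4 injury changed the pathway in the liver. Fasn showed the largest fall of the 7 members, with 156 and 169 CPM in the fibrotic sections, against 383 CPM in the healthy section. Acly stood at 180.4 and 195 CPM in the fibrotic sections, against 341 CPM in the healthy one. The gap between these groups was several times the gap between the fibrotic replicates for both genes. Fasn fell by 1.56 ± 0.28 (SE) on the log2 scale (edgeR's quasi-likelihood test, adjusted p = 0.000703) and Acly by 1.19 ± 0.28 (edgeR adjusted p = 0.00663). Me1, which supplies NADPH, had 52.5 and 58.8 CPM in fibrotic sections, against 84.1 CPM in the healthy section. Its fall was 0.92 ± 0.22 on the log2 scale, with an edgeR adjusted p of 0.00663. Thrsp had 197 and 245 CPM in the fibrotic sections, against 359 CPM in the healthy section, and fell by 1.02 ± 0.30 (edgeR adjusted p = 0.0281).

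The first committed step and the desaturase did not pass the test. Acaca had 143 and 154 CPM in fibrotic sections and 158 CPM in the healthy section (log2 fold change -0.42 ± 0.26, edgeR adjusted p = 0.303). All 3 values lay close together, and the interval of the difference ran between -0.95 and 0.11. Scd1 had 894 CPM in fibrotic replicate 1 and 1454 CPM in fibrotic replicate 2, against 1473 CPM in the healthy section. Fibrotic replicate 1 was thus low and fibrotic replicate 2 near the healthy section, and the difference (-0.63 ± 0.47) was not called, with an edgeR adjusted p of 0.402. The transcription factor gene Srebf1 had 52.9 and 55.1 CPM in the fibrotic sections and 56.9 CPM in the healthy section (-0.40 ± 0.21, edgeR adjusted p = 0.226).

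**Figure D1:**
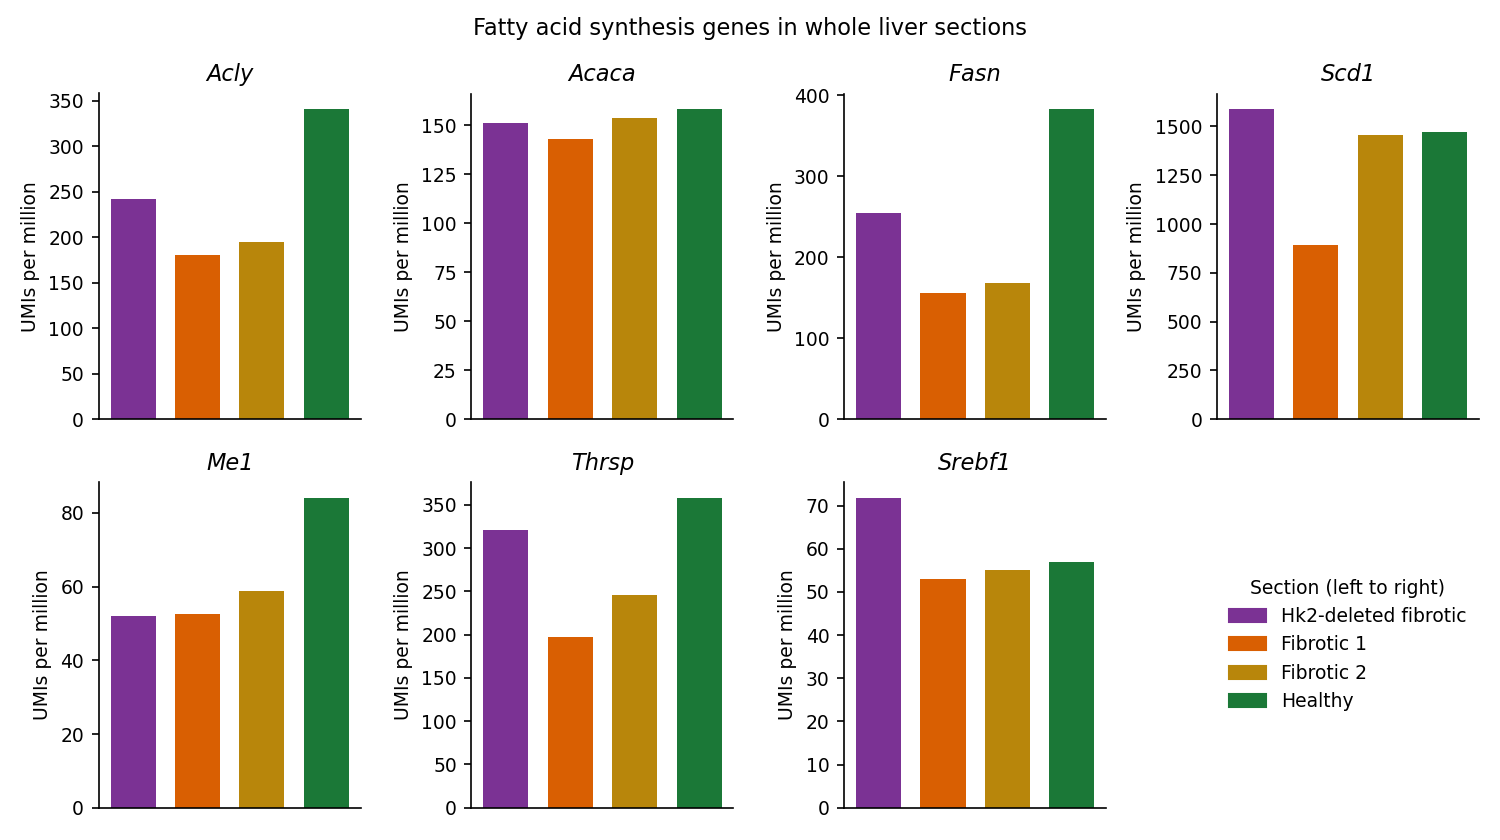
CPM of each measured gene over all spots of a section, with 1 bar per section: Hk2-deleted fibrotic, fibrotic replicates 1 and 2, and healthy. Each axis starts at 0 and has its own scale. Fasn at 156 and 169 CPM, Acly at 180.4 and 195 CPM, Me1 and Thrsp were lower in both fibrotic bars than in the healthy bar, and Scd1 was low in fibrotic replicate 1 alone.

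In this comparison 4 of 7 members were called lower and 0 higher, where 4.01% of 14125 genes tested were called lower and 9.64% higher. The members' median log2 fold change was -0.92, against a median of 0.00 over all genes. The fit has 1 residual degree of freedom, that of the 2 fibrotic sections, and assumes that the lone healthy section varies like them; the p-values measure the spread between these sections only. In whole sections and in spots, fewer cells of a type and less RNA per cell cannot be told apart. The choice of scaling mattered. Trimmed-mean (TMM) scaling lowered the median of all genes by 0.34 on the log2 scale relative to library totals, and with library totals the same 4 members were called, with log2 fold changes between -1.24 and -0.60, where 1.46% of genes were called lower and 13.3% higher. The summed hepatocyte markers were also lower, at 221675 and 208759 CPM in fibrotic sections, against 255907 CPM in the healthy section. Single markers differed in direction. Alb had 122530 and 100699 CPM in the fibrotic sections, against 135176 CPM in the healthy one. Trf had 14783 and 14415 CPM against 8078 CPM, and Ahsg 12569 and 12593 CPM against 10419 CPM. Under TMM 0 of the 12 hepatocyte markers were called (median -0.55). Scaled to those markers, an alternative chosen after seeing the data that moves the median of all genes to 0.59, Fasn (-0.99) and Acly (-0.61) were still called and Me1 (-0.34) and Thrsp (-0.44) were not, while Acaca (0.16) and Srebf1 (0.18) turned to uncalled values above 0. Under that scaling 0.807% of genes were called lower and 35.4% higher.

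**Figure D2:**
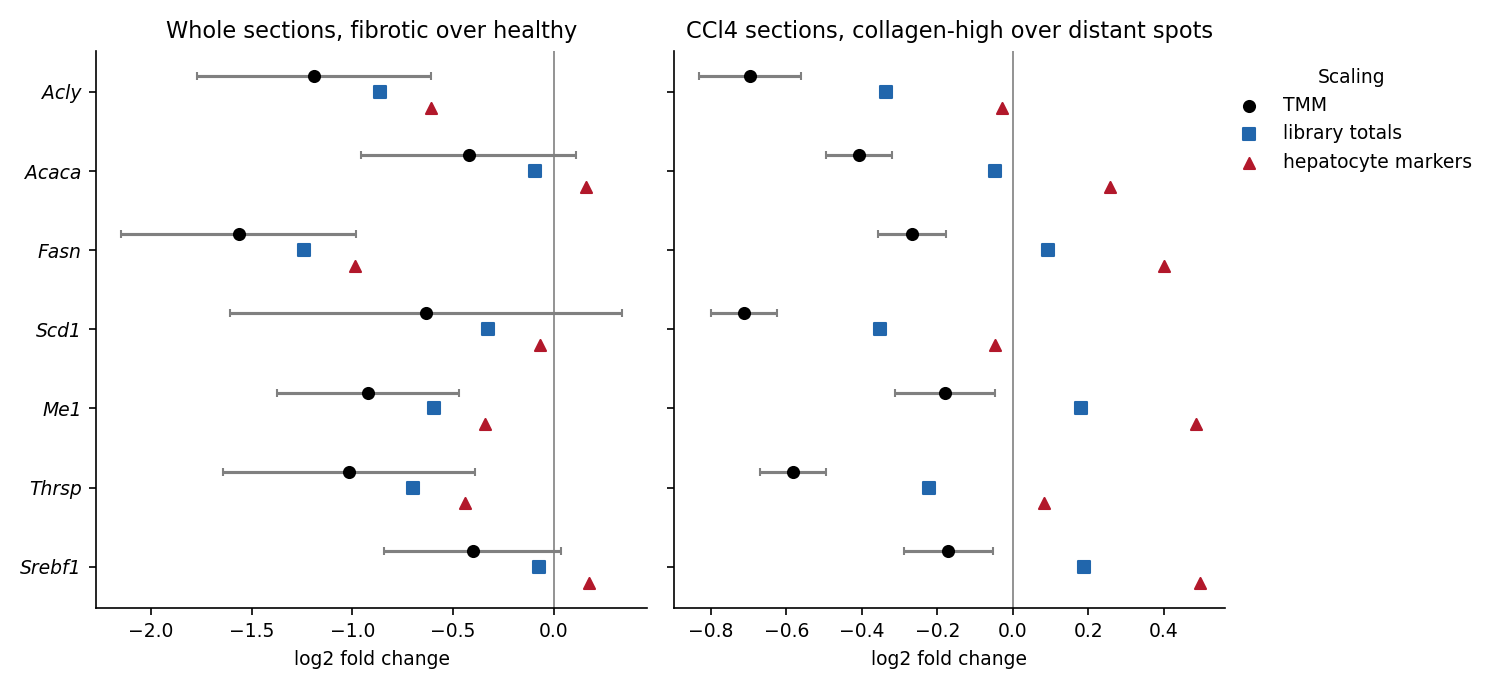
Log2 fold change of each member for fibrotic over healthy whole sections (left) and for collagen-high over distant spots in the 3 CCl4 sections (right), with points for TMM scaling, library totals and hepatocyte markers, and bars for the 95% interval of the TMM fit. Fasn and Acly lie below 0 under each scaling on the left, while on the right Fasn moves between -0.27 and 0.40.

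Without fibrotic replicate 1, whose label the Y-linked genes went against, fibrotic replicate 2 and the Hk2-deleted section were joined as the CCl4 group. Fasn (-1.18), Acly (-0.96) and Me1 (-0.91) were still called lower, while Thrsp at -0.66 was not (edgeR adjusted p = 0.0954), and 4.95% of all genes were called lower. Leaving out spots near fat or the liver surface (those holding or next to a UMI of Adipoq, Plin1, Msln or Upk3b) likewise ended the call of Thrsp, at -0.99 with an edgeR adjusted p of 0.0662.

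The Hk2-deleted fibrotic section was set against the fibrotic ones to ask whether Hk2 loss in stellate cells changed the pathway in CCl4-treated liver. Fasn stood at 255 CPM in the Hk2-deleted section, against 156 and 169 CPM in the fibrotic sections. Srebf1 had 71.9 CPM in the Hk2-deleted section, above the 52.9 and 55.1 CPM of the fibrotic sections and above the 56.9 CPM of the healthy section. Acly had 242 CPM and Thrsp 321 CPM in the Hk2-deleted section, where the fibrotic sections reached at most 195 CPM and 245 CPM. The Hk2-deleted value of these 4 genes lay above both fibrotic values. Scd1 was also highest there, at 1589 CPM against 894 and 1454 CPM in the fibrotic sections. Acaca, at 151 CPM, lay between the fibrotic values, and Me1, at 52.0 CPM, just under them.

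No member was called: 0 of 7 passed in either direction, where 0.142% of 14125 genes were called higher and 0.085% lower, and 0 of 7 had an unadjusted edgeR p under 0.05. The difference for Fasn was 0.59 ± 0.28 on the log2 scale, with an interval between -0.0044 and 1.18 and an edgeR adjusted p of 0.9998. For Srebf1 it was 0.35 ± 0.21 (interval -0.09 to 0.79) and for Thrsp 0.47 ± 0.30 (interval -0.17 to 1.10). The intervals for Acly (-0.29 to 0.90), Scd1 (-0.62 to 1.34), Acaca (-0.58 to 0.51) and Me1 (-0.63 to 0.31) also held 0, so neither a rise nor a fall of moderate size could be shown with 1 Hk2-deleted section. With DESeq2 0 members were called, where 0.0779% of genes were called higher and 0.0708% lower. With hepatocyte-marker scaling Fasn alone was called (0.99, edgeR adjusted p = 0.0357), where 0.503% of genes were called higher and 0.00708% lower. That scaling moved the median of all genes to 0.38. Against fibrotic replicate 2 alone, which allows no test, the difference was 0.44 for Fasn and 0.23 for Srebf1, and Scd1 stood at -0.02. The hepatocyte markers summed to 170169 CPM in the Hk2-deleted section, the lowest of the 4 sections. Alb weighed most in this sum: the Hk2-deleted section held 68850 CPM of it, and no other section held less than 100699 CPM. Ttr, Apoa1, Apoh, Apoc3, Rbp4 and Serpina1c were lowest in that section too, whereas Ambp (5477 CPM) and Fgb (12087 CPM) were highest. Whether Fasn stays called under hepatocyte-marker scaling with Alb left out was not tested.

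Other genes around the pathway gave a mixed picture between fibrotic and healthy whole sections. Among 13 tested paralogs and neighbouring enzymes, 2 were called higher and 3 lower, with a median of 0.05, where 9.64% and 4.01% of all genes were. Scd2, a paralog of Scd1 that is known for its level in brain, rose to 25.1 and 22.3 CPM in fibrotic sections, against 5.31 CPM in the healthy one (1.82 ± 0.20, edgeR adjusted p = 4.32e-06). Elovl7, an elongase, had 3.25 and 2.24 CPM in fibrotic sections and 0.592 CPM in the healthy section (1.87 ± 0.48). Acacb, the acetyl-CoA carboxylase found at the mitochondrial membrane, fell by 1.33 ± 0.20, with 46.8 and 36.9 CPM in the fibrotic sections, against 83.1 CPM in the healthy section. Elovl3, an elongase known in mice for higher levels in male liver, had 0.0445 and 0.0986 CPM in the fibrotic sections and 4.83 CPM in the healthy section, and was called lower (edgeR adjusted p = 3.34e-07). Elovl5, named outside the rule after its values were seen, also fell (-0.94).

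Of 11 tested genes of carbon and NADPH supply, 0 rose and 1 fell, with a median of -0.20. The acetyl-CoA synthetase gene Acss2, which makes acetyl-CoA from acetate, fell by 1.43 ± 0.26, with 177 and 145 CPM in the fibrotic sections and 343 CPM in the healthy section. Of 20 regulators, 1 rose and 4 fell, with a median of -0.24. Lpin1, a phosphatidate phosphatase and coactivator, fell by 2.07 ± 0.20. Irs2, an insulin receptor substrate, fell by 1.64 ± 0.19, and Pparg, a nuclear receptor that promotes lipid storage, fell by 0.88 ± 0.18. Irs1, the other main insulin receptor substrate, rose by 0.67 ± 0.20, and Scap, the escort of the SREBP proteins and here named after its values were seen, fell by 0.65.

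Of 17 tested genes of triglyceride synthesis and storage, 0 rose and 4 fell, with a median of -0.38. Fitm1, which takes part in lipid droplet formation, had 3.54 and 7.15 CPM in fibrotic sections, against 100.4 CPM in the healthy section, and fell by 4.56 ± 0.29. Gpam, the acyltransferase that starts glycerolipid synthesis, fell by 1.07 ± 0.23, Lpin2 by 1.09 ± 0.26 and the acyl-CoA synthetase gene Acsl5 by 0.99 ± 0.24. The balance of these lists moved with the scaling. With library totals 3 triglyceride genes were called higher and 4 lower (median -0.06), and 1 regulator higher and 2 lower (median 0.09). With hepatocyte markers the counts were 3 higher and 2 lower for triglyceride genes (median 0.20) and 6 higher and 2 lower for regulators (median 0.34). The paralogs gave 3 higher and 3 lower with library totals and 5 higher and 2 lower with hepatocyte markers, and the supply genes 0 and 1 higher, with 1 lower under each. The shares of all genes under these scalings are those given above for the members. The named genes kept their direction with library totals and with hepatocyte-marker scaling, but the calls of Pparg and Scap were lost under both, and those of Elovl5, Lpin2 and Acsl5 under hepatocyte-marker scaling. With the CCl4 group made of fibrotic replicate 2 and the Hk2-deleted section, Elovl7 (1.26) and Irs1 (0.36) were not called, and the other named genes of the lists kept their calls. Between the Hk2-deleted and the fibrotic sections, 1 gene of the 4 lists was called: Angptl8, an insulin-induced secreted inhibitor of lipoprotein lipase, at 574 CPM in the Hk2-deleted section, against 214 and 90.7 CPM in the fibrotic sections (1.90 ± 0.33, edgeR adjusted p = 0.0120). Its difference was 2.51 without fibrotic replicate 1, which leaves no test.

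**Figure D3:**
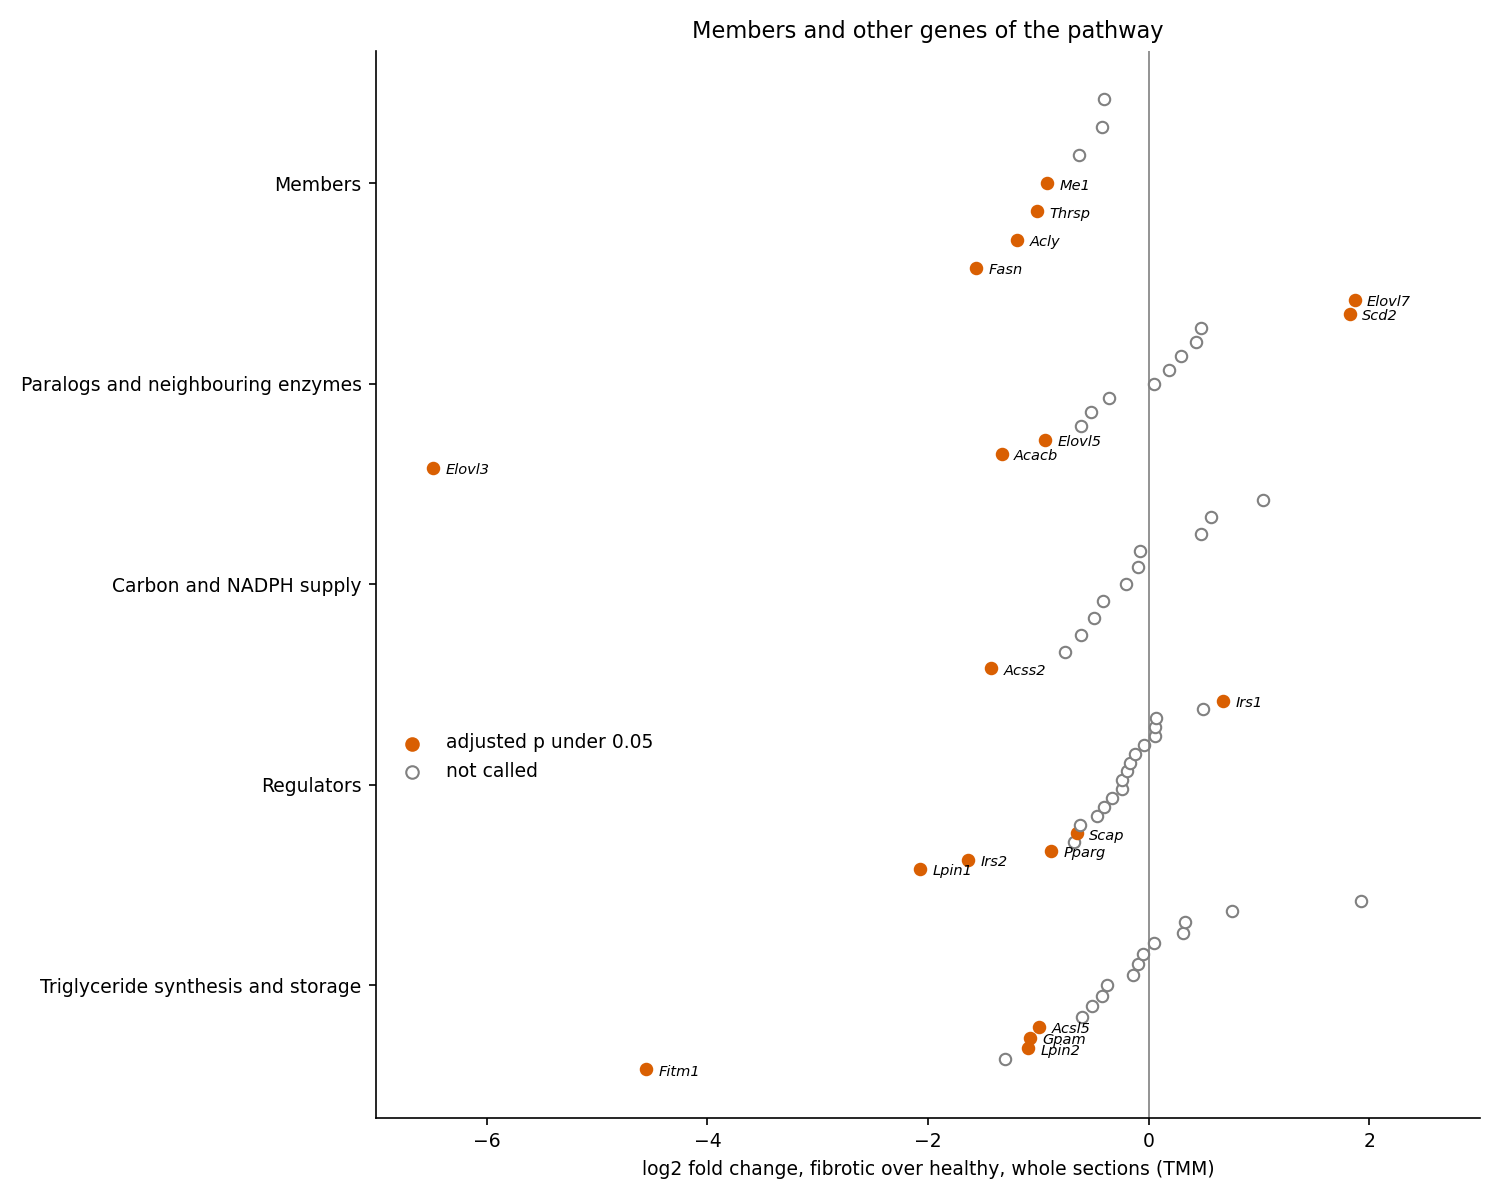
Log2 fold change of fibrotic over healthy whole sections for the 7 members and for the tested genes of 4 pathway lists, with 1 point per gene. Filled and named points had an adjusted p under 0.05: 4 of 7 members, 5 of 13 paralogs, 1 of 11 supply genes, 5 of 20 regulators and 4 of 17 triglyceride genes.

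Hepatocytes differ in their enzymes along the path of blood, which enters a lobule at the portal tracts and leaves at the central vein. Spots were ranked within each section by a score of 9 pericentral and 12 periportal landmark genes, none of them a member, and cut into 3 zones of equal size and into 10 deciles. Acly was the member with the steepest periportal lean. In the pericentral zone it had 169, 153 and 212 CPM in fibrotic replicates 1 and 2 and the Hk2-deleted section, against 200.5, 237 and 262 CPM in the periportal zone of the same sections. In the healthy section it had 249 CPM in the pericentral and 412 CPM in the periportal zone. All 4 sections were lower at the pericentral side (-0.68 ± 0.09, edgeR adjusted p = 0.00437). Along 10 deciles of the healthy section, Acly fell steadily to 219.9 CPM in the most pericentral decile, against 439 CPM in the most periportal one.

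Me1 ran the other way. In the pericentral zone it had 60.0, 73.2 and 58.9 CPM in the 2 fibrotic and the Hk2-deleted sections, against 42.6, 45.1 and 44.3 CPM in the periportal zone. In the healthy section it had 111 CPM in the pericentral and 63.4 CPM in the periportal zone. It was higher at the pericentral side in all 4 sections (0.40 ± 0.09, edgeR adjusted p = 0.0312). Thus 1 of 7 members was called higher and 1 lower, where 5.46% and 4.88% of 13084 genes were. The remaining members were not called: Acaca had a log2 difference of -0.22 ± 0.06 (edgeR adjusted p = 0.0656), Scd1 -0.24 ± 0.14, Thrsp -0.17 ± 0.08, Srebf1 -0.06 ± 0.06 and Fasn 0.02 ± 0.10. With library totals, which move the median of all genes by 0.20, Acly (-0.48) and Me1 (0.60) kept their direction and their call, while Thrsp (0.03) and Srebf1 (0.14) turned to uncalled values above 0. Leaving out any CCl4 section ended the call of Me1 (0.45 without fibrotic replicate 1), while Acly was still called without fibrotic replicate 1 (-0.74). Leaving out fibrotic replicate 2 brought Acly to an edgeR adjusted p of 0.05003, just over the threshold. Calls over all genes fell as well: without a CCl4 section, 0.909% to 1.17% of genes were called higher and 0.802% to 0.995% lower. Without the healthy section, Scd1 (-0.39), Acaca (-0.20) and Thrsp (-0.19) were called lower beside Acly, so that the count of 1 lower member became 4. In that setting 21.1% of all genes were called lower and 20.2% higher, and the raw pericentral over periportal log2 ratios were above 0 in fibrotic replicate 2 and the Hk2-deleted section for Acaca (0.12 and 0.06) and Thrsp (0.16 and 0.16). Summed hepatocyte markers had pericentral over periportal log2 ratios of -0.26, -0.17 and -0.09 in fibrotic replicates 1 and 2 and the Hk2-deleted section, and of -0.31 in the healthy section, and their part in these differences was not tested.

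**Figure D4:**
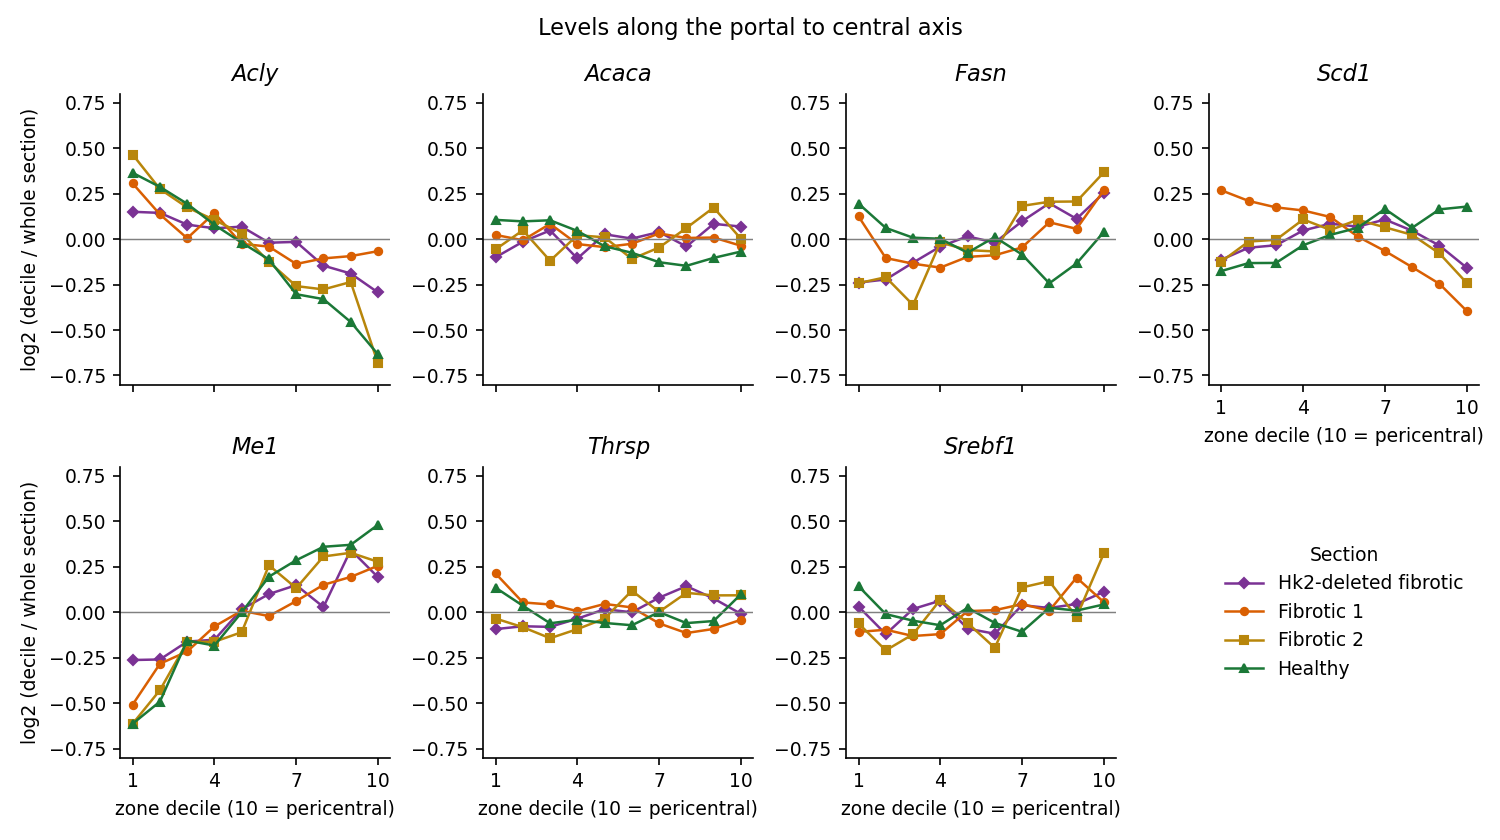
Log2 of each member's CPM in a decile of the zone score over its CPM in the whole section, from the most periportal decile (1) to the most pericentral (10), with 1 line per section. Acly is highest in decile 1 of each section and lowest in decile 10 of all but fibrotic replicate 1 (decile 7), and Me1 is lowest in decile 1 of each section and highest in decile 9 or 10, while the lines of Fasn and Scd1 part between the healthy and the CCl4 sections at the pericentral end.

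Whether the zonal difference itself differed with CCl4 was tested with a term for zone by CCl4, 3 CCl4 sections against 1 healthy section. Fasn was higher in the pericentral than in the periportal zone by 0.18, 0.52 and 0.36 (log2, raw CPM) in fibrotic replicates 1 and 2 and the Hk2-deleted section, while its log2 ratio in the healthy section was -0.18. The healthy section stood apart from all 3 CCl4 sections, and the term was 0.39 ± 0.11 (edgeR adjusted p = 0.0144). Scd1 had pericentral over periportal log2 ratios of -0.44, -0.03 and 0.03 in fibrotic replicates 1 and 2 and the Hk2-deleted section, and of 0.29 in the healthy section. Its term was -0.57 ± 0.14 (edgeR adjusted p = 0.00632). For Me1 the ratios were 0.50, 0.70 and 0.41 in the same CCl4 sections and 0.81 in the healthy section, which was again outside the CCl4 range, and the term was -0.42 ± 0.10 (edgeR adjusted p = 0.00573). So 1 of 7 members was called with a positive term and 2 with a negative one, where 8.87% and 11.3% of 13334 genes were. The terms of Acly (0.20), Acaca (0.10), Srebf1 (0.07) and Thrsp (-0.05) were not called. The healthy side has no replicate, and DESeq2 called none of the 3 (adjusted p = 0.0948 for Fasn, 0.235 for Scd1 and 0.1254 for Me1). With library totals, which move the median of all genes by 0.14, the terms of Fasn (0.53) and Scd1 (-0.43) were still called, that of Me1 (-0.28) was not, and that of Acly (0.34) was. Without fibrotic replicate 1 the terms of Fasn (0.48), Scd1 (-0.43) and Me1 (-0.40) kept their calls, and without fibrotic replicate 2 that of Acly (0.32) was called as well. Cell type markers moved in the same term: 6 of 12 hepatocyte markers had a negative term and 0 a positive one (median -0.29), and 9 of 10 stellate and fibroblast markers, 5 of 8 macrophage markers (median 1.11, with 1 negative) and 4 of 5 cholangiocyte markers (median 1.69) a positive one. Stellate and fibroblast markers, none at 0, summed to 1680 to 2801 CPM in the pericentral zone of the CCl4 sections, against 571 to 1114 CPM in their periportal zone, and to 224 against 216 CPM in the healthy section. The part of this cell mix in the members' terms was not tested.

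Within zones, the fall in fibrotic sections was present at both ends of the lobule for Fasn and Acly. In the pericentral zone Fasn had 170.5 and 202 CPM in the fibrotic sections, against 359 CPM in the healthy section (-1.30 ± 0.25, edgeR adjusted p = 0.00234). In the periportal zone it had 150.2 and 141 CPM in the fibrotic sections, against 406 CPM in the healthy section (-1.70 ± 0.23, edgeR adjusted p = 0.00362). Acly fell by 0.99 ± 0.22 in the pericentral zone and by 1.13 ± 0.26 in the periportal zone. Me1 fell by 1.10 ± 0.21 and Thrsp by 1.03 ± 0.28 in the pericentral zone, and in the periportal zone their differences of -0.76 and -0.95 were not called (edgeR adjusted p = 0.0653 and 0.0785). They were called there when no filter on low counts was set, or when zones were scored from Cyp2e1 and Cyp2f2 alone. With the Hk2-deleted section and fibrotic replicate 2 as the CCl4 group, Thrsp was not called in either zone, at -0.61 and -0.69, and Me1 was called in both, at -1.09 and -0.73. That makes 4 of 7 members lower in the pericentral zone, where 8.15% of 13113 genes were (14.7% were higher), and 2 of 7 in the periportal zone, where 1.22% of 13068 genes were (1.84% were higher). In the middle zone, added after seeing the data, the 4 genes called in whole sections were called too, with log2 fold changes of -1.53 for Fasn, -1.11 for Acly, -0.95 for Me1 and -0.92 for Thrsp, where 3.38% of 13124 genes were called lower and 8.23% higher. Scd1 in the pericentral zone had 759 and 1388 CPM in fibrotic sections, against 1632 CPM in the healthy section, and was not called (-0.95 ± 0.39, edgeR adjusted p = 0.103).

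To place the members relative to scars, spots were ordered by the part of their UMIs that came from 3 fibrillar collagen genes (Col1a1, Col1a2, Col3a1). The top 10 percent of each section are called collagen-high, and spots at least 3 array steps from any of them distant. In the 3 CCl4 sections all 7 members were called lower in collagen-high than in distant spots under TMM scaling, but 3 of them turned round with library totals. Here 27.1% of 12953 genes were called lower and 26.8% higher, and the members' median was -0.41 against 0.00 over all genes. The fit holds 4 distance classes of each section, with section as a term. Its SE and p-values pool the spread over all 4 classes, so they do not measure how this difference alone varies between mice. Scd1 had 688, 1264 and 1292 CPM in collagen-high spots of fibrotic replicates 1 and 2 and the Hk2-deleted section, against 969, 1462 and 1645 CPM in distant spots. It was lower in each of the 3 sections, with raw log2 ratios of -0.50, -0.21 and -0.35 in the same order. Under TMM it fell by 0.71 ± 0.04 (edgeR adjusted p = 1.15e-11). Acly had 172, 141 and 192 CPM in collagen-high spots of these sections, against 186, 208 and 254 CPM in distant spots. It too was lower in each, with raw log2 ratios of -0.11, -0.56 and -0.40. Under TMM it fell by 0.70 ± 0.06 (edgeR adjusted p = 1.04e-08). Thrsp had 166.5, 232 and 281 CPM in collagen-high spots, against 207, 249 and 332 CPM in distant spots, and fell by 0.58 ± 0.04. These 3 genes were also called lower with library totals: Scd1 at -0.35, Acly at -0.34 and Thrsp at -0.22. Scaled to hepatocyte markers none of the 3 was called, with Scd1 at -0.05, Acly at -0.03 and Thrsp at 0.08. Without fibrotic replicate 1, Acly (-0.84), Scd1 (-0.65) and Thrsp (-0.54) were still called lower under TMM. In that setting 6 of 7 members were called lower, where 22.6% of all genes were.

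The other 4 members changed sign or lost the call with the scaling. Acaca fell by 0.41 under TMM and was at -0.05, not called, with library totals. Fasn had 162, 187 and 261 CPM in collagen-high spots of fibrotic replicates 1 and 2 and the Hk2-deleted section, against 149.96, 166.5 and 256 CPM in distant spots, so that its raw level was slightly higher in the collagen-high spots of each section. Its log2 fold change was -0.27 ± 0.04 under TMM, 0.09 with library totals and 0.40 scaled to hepatocyte markers. Me1 went between -0.18 under TMM and 0.18 with library totals, and Srebf1 between -0.17 and 0.19. Relative to TMM, library totals moved the median of all genes by 0.36 here and hepatocyte markers moved it to 0.67. The calls of Me1 and Srebf1 under TMM also rested on single sections: without fibrotic replicate 1 Me1 was not called (-0.12), and without the Hk2-deleted section neither Me1 (-0.12) nor Srebf1 (-0.06) was. In raw CPM, summed hepatocyte markers in collagen-high spots stood at 0.33, 0.28 and 0.30 log2 units under their level in distant spots. These values are for fibrotic replicates 1 and 2 and the Hk2-deleted section, in that order. Under TMM 12 of 12 hepatocyte markers were called lower, where 27.1% of all genes were. Their median was -0.67, and that of the members -0.41. With counts scaled to these markers, 4 members were called higher (Acaca 0.26, Fasn 0.40, Me1 0.49 and Srebf1 0.49) and 0 lower. Under that scaling 88.3% of all genes were called higher and 1.47% lower, and with library totals 63.4% were called higher and 6.73% lower. Stellate and fibroblast markers (10 genes, none at 0) summed to 5190, 3137 and 5518 CPM in collagen-high spots of these sections, against 1335, 684 and 743 CPM in distant spots. That list holds Col1a1, Col1a2 and Col3a1, so part of this gap follows from how the spots were chosen. With those genes left out, 7 of 7 tested markers were called higher under TMM (median 1.29), where 26.8% of all genes were. The part of this cell mix in the members' differences was not tested.

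**Figure D5:**
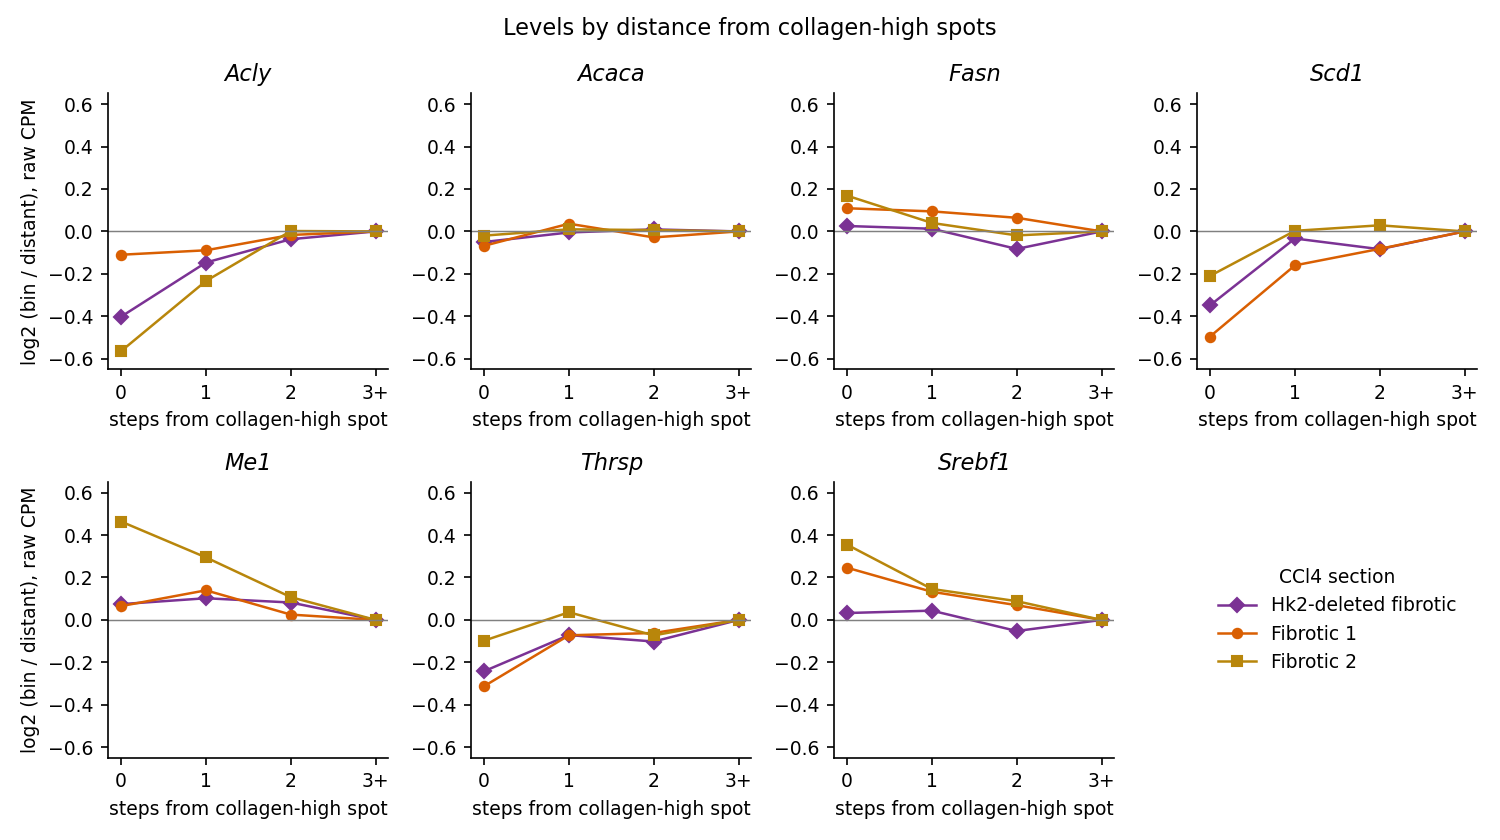
Log2 of each member's raw CPM at 0, 1 and 2 array steps from the nearest collagen-high spot over its raw CPM in distant spots (3 steps or more, set to 0), with 1 line per CCl4 section. Scd1 and Acly are lowest at step 0 in each section, and the values at 2 steps lie near 0, while Me1 and Srebf1 are above 0 at step 0.

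Collagen-high spots were not spread evenly over the lobule. In the pericentral zone lay 71.4%, 77.1% and 69.7% of those of fibrotic replicates 1 and 2 and the Hk2-deleted section, against 20.2%, 17.1% and 25.2% of the distant spots. Within the pericentral zone alone, Scd1 (-0.63), Thrsp (-0.57), Acly (-0.43), Fasn (-0.34), Acaca (-0.32) and Me1 (-0.28) were called lower and Srebf1 (-0.14) was not, where 18.4% of genes were called lower. The periportal zone held only 16, 10 and 28 collagen-high spots in the same sections, and there Thrsp (-0.48), Acly (-0.46) and Scd1 (-0.33) were called, where 6.99% of genes were called lower. In the healthy section, where this top 10 percent begins at a collagen share of 0.0167% against 0.142% to 0.270% in the CCl4 sections, the log2 ratio of collagen-high over distant spots lay between -0.19 for Thrsp and 0.14 for Me1.

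Spots next to collagen-high ones were compared with distant spots to ask how far the difference reached. Acly (-0.27 ± 0.06, edgeR adjusted p = 0.00413), Scd1 (-0.18 ± 0.04, edgeR adjusted p = 0.00614) and Thrsp (-0.15 ± 0.04, edgeR adjusted p = 0.0141) were called lower. That is 3 of 7 members, where 6.51% of 12953 genes were lower and 5.91% higher. The fit is that of the collagen-high spots, so the same limit holds for its SE and p-values. Of 12 hepatocyte markers 10 were called lower too, with a median of -0.18. Scaled to those markers, 3 members were called higher and 0 lower, and Scd1 and Thrsp turned to values above 0. Under that scaling 39.8% of all genes were called higher. None of Acly, Scd1 and Thrsp was called within the pericentral, middle or periportal zone alone, nor with library totals. Few genes were called lower at all there: 0.332%, 0.836% and 0.159% in these zones and 1.57% with library totals. Without fibrotic replicate 1 the calls of Scd1 and Thrsp were lost, without fibrotic replicate 2 that of Acly and without the Hk2-deleted section that of Thrsp. In these settings 2.73%, 2.78% and 4.44% of all genes were called lower. At 2 steps, a comparison added after seeing the data, 0 of 7 members were called (1 at an unadjusted p under 0.05), where 0.0154% of genes were called higher and 0% lower. The difference between collagen-high and distant spots was not shown to differ with Hk2 deletion: 0 of 7 members were called, where 0.444% of 13274 genes had a higher and 0.0527% a lower term, with 0 at an unadjusted p under 0.05 and terms between -0.29 for Srebf1 (interval -0.58 to 0.01) and -0.02 for Scd1 (interval -0.29 to 0.25). In distant spots alone, fibrotic sections were lower than the healthy section in Fasn (-1.66 ± 0.28), Acly (-1.05 ± 0.28), Thrsp (-1.03 ± 0.30) and Me1 (-0.91 ± 0.21), 4 of 7 members where 3.13% of 13058 genes were called lower and 6.59% higher. With the Hk2-deleted section and fibrotic replicate 2 as the CCl4 group, Fasn (-1.24), Acly (-0.81) and Me1 (-0.89) were still called and Thrsp (-0.68, edgeR adjusted p = 0.0593) was not.

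The pathway lists were set in the same layout under TMM. Between zones, 1 of 11 paralogs, 2 of 11 supply genes, 1 of 20 regulators and 0 of 15 triglyceride genes were called lower. Called higher were 0, 2, 1 and 1, where 4.88% of all genes were lower and 5.46% higher. With library totals 3, 5, 9 and 7 were called higher and 1, 1, 1 and 0 lower, where 28.9% of all genes were higher and 2.78% lower. Under TMM, Elovl2 (-0.52), Khk (-0.41), Tkfc (-0.32) and Lpin1 (-0.41) were lower at the pericentral side, and Pdk4 (1.28), Fitm1 (1.14), Pgd (0.38) and Irs1 (0.35) higher. All kept their direction with library totals, though the call of Tkfc was then lost. These 8 genes kept their direction without fibrotic replicate 1, but Pdk4 alone (1.29) kept its call, where 1.17% of all genes were called higher and 0.995% lower. In collagen-high spots, 13 of 20 regulators, 12 of 15 triglyceride genes, 6 of 11 supply genes and 6 of 10 paralogs were called lower, where 27.1% of all genes were. These counts were 11, 13, 6 and 6 without fibrotic replicate 1. Those with the largest fall per list were Elovl2 (-0.74), Khk (-0.65), Insig2 (-0.65) and Apob (-0.69), while Scd2 (0.56), Pdk4 (0.75) and Acss1 (1.05) rose. The call of Acss1 was lost without fibrotic replicate 1 (0.73, edgeR adjusted p = 0.302). With library totals the lists were mixed: 7 regulators were called higher and 6 lower, 3 triglyceride genes higher and 2 lower, 6 supply genes higher and 3 lower, and 5 paralogs higher and 3 lower. Scaled to hepatocyte markers, the lists turned round: 16 of 20 regulators, 13 of 15 triglyceride genes, 10 of 11 supply genes and 8 of 10 paralogs were called higher and 0 lower, as 88.3% of all genes were called higher there.

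Within a section the members varied in how patchy they were. The authors' deposited tables give Moran's I per gene, a score of how alike neighbouring spots are. In the authors' deposited table of the healthy section, Scd1 had 0.366 and ranked 32 of 15352 genes, and Fasn had 0.238 and ranked 68. In their deposited tables of the CCl4 sections, Fasn had 0.0776 and 0.0985 in fibrotic replicates 1 and 2 and 0.0630 in the Hk2-deleted section, and Scd1 had 0.203, 0.111 and 0.251. Acly had 0.0529 and 0.0694 in the fibrotic and 0.0386 in the Hk2-deleted section, against 0.176 in the healthy section, again from the authors' deposited tables. Srebf1 had the lowest values of the members in 3 of the 4 deposited tables, between 0.000211 and 0.0130, while in fibrotic replicate 2 Acaca was lower (0.0159 against 0.0166). These scores also depend on depth: Srebf1 had a UMI in 54.9% to 66.6% of spots, and Scd1 in 99.6% or more.

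Across spots, the measured r between pairs of members was low. Members other than Scd1 had a median of 1 to 5 UMIs per spot, and such low counts limit how high r can be. Over the 21 pairs, Pearson's r of spot values had a median of 0.0755 in the Hk2-deleted section, 0.0724 and 0.0557 in fibrotic replicates 1 and 2 and 0.0878 in the healthy section, over spots that share a library and its depth. The highest was 0.339, for Scd1 with Thrsp in the Hk2-deleted section. Over 12 sums (3 zones of 4 sections, so that values of 1 section share a library), Thrsp followed the mean of the other members most closely (r = 0.985) and Me1 least (r = 0.642). Of 8068 other genes with a pooled level of at least 10 CPM, the 5 whose levels over these sums were most like the members' mean were Pim3 (r = 0.983), Zfand4 (0.982), Papola (0.977), Rab18 (0.977) and Ppp1r3b (0.97495). These r describe 4 sections, of which the healthy one was highest in most members.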

How the data were processed

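Spatial gene expression was measured in 4 mouse liver sections. The authors deposited UMI counts per gene and spot, made with Space Ranger 2.0.0 per the file headers, and the build was mm10, credited to the submitters' processing notes. The probe set is not given in the sources used here. Moran's I, a score per gene, was taken from the authors' deposited tables. The members, lists and tests were chosen with earlier results of these data known.

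Counts were summed over all spots under tissue in each section, or over the spots of a lobule zone or a distance class within it, and each section was 1 replicate. Sums were tested with edgeR 4.0.16 in R 4.3.3 (TMM scaling, filterByExpr, glmQLFit and glmQLFTest), and p-values were Benjamini-Hochberg adjusted over all genes tested, with a threshold of 0.05. Comparisons of spot classes within sections kept the section as a term. CPM in the text are raw counts scaled to a total of 1000000 over the spots summed. DESeq2 1.42.0, library totals, hepatocyte-marker scaling, no filter on low counts, other zone and collagen definitions, and leaving out each section were tried as alternatives. The fits were tested on simulated data. Nothing in the labels says more of the sections' independence than that each is a mouse.

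Named genes were the members, Hk2, up to 4 called genes with the largest change per list and comparison (up to 2 of the highest level where none was called), and the 5 genes most like the members. 1 gene of the carbon and NADPH supply list is not reported here, and that list's counts leave it out. Totals of 40585039 to 67479047 UMIs leave counting errors small beside the spread between sections for the more abundant genes in whole sections. Genes of low level, such as Elovl3, Elovl7 and Acss1, and sums over few spots rest on few UMIs. No genome sequence was used beyond the RefSeq promoter table.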

Additional observations from a re-analysis of the deposited data

Results flagged for a closer look

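The effect of zone differed with CCl4 by a test of the difference itself, the zone by CCl4 term (edgeR's quasi-likelihood test, adjusted over 13334 genes, 3 CCl4 sections against 1 healthy section). Among the members the term was 0.39 for Fasn, -0.57 for Scd1 and -0.42 for Me1, on the log2 scale. A positive value means a higher ratio of pericentral to periportal level in the CCl4 sections than in the healthy one. In the pathway lists, up to 4 called genes with the largest terms are named per list. Of 11 tested paralogs 2 had a positive and 5 a negative term, and of 11 supply genes 1 and 1. Of 20 regulators 0 had a positive and 4 a negative term, and of 16 triglyceride genes 0 and 6. Over all genes 8.87% were called with a positive and 11.3% with a negative term. The term was positive for Elovl7 (3.55), Scd2 (0.94) and Pklr (0.33). Elovl7 was at or under 3.25 CPM in whole sections, so that its term rests on few UMIs. It was negative for the enzymes Acacb (-0.62), Elovl5 (-0.43) and the citrate carrier Slc25a1 (-0.47). Among regulators it was negative for Pparg (-1.12), Insig2 (-0.76), Ppara (-0.41) and Mlxipl (-0.33). Among triglyceride genes it was negative for Fitm1 (-1.20), Agpat2 (-0.68), Acsl1 (-0.54) and Fitm2 (-0.50). Each of these list genes kept its direction and its call without fibrotic replicate 1, and with library totals Elovl5 (-0.29) and Mlxipl (-0.19) lost theirs. Stellate and fibroblast markers (9 of 10) had positive terms and hepatocyte markers (6 of 12, median -0.29) negative ones, and their part in these terms was not tested. DESeq2 called none of the 3 members, and the healthy side of each term is a single section.

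For Angptl8 the collagen by genotype term was called, at -0.58 (edgeR adjusted p = 0.0377), where 0.444% of all genes had a higher and 0.0527% a lower term. It sets 1 Hk2-deleted section against 2 fibrotic ones, so genotype and the single section cannot be told apart. The term was -0.68 without fibrotic replicate 1, which leaves no test. Angptl8 had 451 CPM in collagen-high and 605 CPM in distant spots of the Hk2-deleted section. In fibrotic replicates 1 and 2 it had 215 and 98.6 CPM in collagen-high spots, against 208 and 83.4 CPM in distant spots.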

How the results depend on the processing

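Mice of different groups could not be paired, because the labels give no pairing. Comparisons of spot classes within sections kept the section as a term. Over 90 results and 867 alternatives, 723 kept their direction and their side of the threshold, 50 lost a call, 16 gained one, 37 counts or values moved and 41 turned direction; the cause was not tested. Scaled to hepatocyte markers, the count of members lower in fibrotic whole sections was 2 instead of 4, and Acaca (0.16) and Srebf1 (0.18) turned. In the Hk2-deleted against fibrotic comparison, that scaling called 1 member higher and turned Acaca (0.36) and Me1 (0.24), and Acaca also turned with library totals (0.026) and without fat or surface spots (0.018). Between zones, library totals turned Thrsp (0.030) and Srebf1 (0.14), and leaving out 1 section gave 0 to 1 members higher and 0 to 4 lower, with Fasn between -0.061 and 0.11. For the zone by CCl4 term, DESeq2 called 0 higher and 0 lower, library totals 2 higher and 1 lower, and leaving out 1 section 1 to 2 higher and 2 lower; Thrsp turned with library totals (0.088), and lay between -0.12 and 0.058 when 1 section was left out. In the pericentral zone, library totals turned Acaca (0.053) and Srebf1 (0.045). In the periportal zone, 4 members were lower without a filter on low counts and 4 with zones from Cyp2e1 and Cyp2f2. In collagen-high spots, library totals gave 2 higher and 3 lower and turned Fasn (0.094), Me1 (0.18) and Srebf1 (0.19); hepatocyte markers gave 4 higher and 0 lower and turned Fasn (0.40), Acaca (0.26), Me1 (0.49), Thrsp (0.083) and Srebf1 (0.49); the periportal zone alone gave 3 lower, and leaving out 1 section 5 to 7. In spots next to them, library totals gave 1 higher and 0 lower and turned Fasn (0.048), Acaca (0.015) and Srebf1 (0.0996). Hepatocyte markers gave 3 higher and 0 lower there, where 39.8% of all genes were called higher, and turned Fasn (0.12), Acaca (0.084), Scd1 (0.0047), Thrsp (0.031) and Srebf1 (0.17). Each zone alone gave 0 lower, and leaving out 1 section 1 to 3. Me1 there was -0.0065 with the top 5 percent of collagen spots, -0.045 with contiguous ones, -0.21 in the periportal and -0.0044 in the middle zone. Srebf1 was 0.022 with the top 5 percent, 0.076 in the periportal zone and between -0.029 and 0.031 when 1 section was left out. The collagen by genotype term turned for Acly (0.041) and Acaca (0.021) without fat or surface spots, for Acaca with the top 5 percent (0.073) and for Scd1 with library totals (0.0048). Depth limited Me1 and Srebf1 most, with a median of 1 UMI per spot.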
